A study of Mus musculus with 15 samples.

Results

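Distal isolated H3K27ac clusters are stretches of chromatin acetylated in both H3K27ac libraries, which stand apart from other such stretches and away from protein-coding promoters. They were chosen by their H3K27ac peaks: regions holding a peak of both H3K27ac libraries were stitched when within 12000 bp, and a cluster was kept when both neighbouring clusters were at least 200000 bp away and no protein-coding transcription start site (TSS) lay within 2000 bp. The rule gave 224 members, which is 1.90% of 11783 clusters with a neighbour on both sides and 35.7% of the 627 isolated ones. Their nearest relatives were 403 promoter isolated clusters, which met the distance criterion but lay near a TSS, and 4012 distal non-isolated clusters, which lay away from a TSS but near another cluster.

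The study measured wild type CD69-CD4+CD8+ cells of C57BL/6 thymus by ChIP-seq, with 2 H3K27ac, 2 Rad21 and 1 CTCF library behind the peak lists used here. The 8 Hi-C samples (4 wild type, 2 CTCF-/- and 2 CTCF-/-, Rad21-/-) and 2 input samples were not analysed here, so each statement concerns wild type cells. Nothing in the labels ties the replicates to different mice, so a spread between them may be technical. The lists held 38700 and 24765 H3K27ac peaks, 38430 and 48462 Rad21 peaks and 35345 CTCF peaks, without the reads behind them, and sequencing depth is therefore unknown. A shared H3K27ac region lay at a TSS of 9 of 9 genes that mark double-positive thymocytes, among them Cd4, Cd8a, Rag1 and Ptcra. It lay at 1 of 5 myeloid genes (Sfpi1), 1 of 3 erythroid genes (Klf1) and none of 4 thymic epithelial, 3 neuronal or 3 liver genes. The part of other cells in the results below was not tested.

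H3K27ac marks the nucleosomes of active promoters and enhancers. Rad21 is the subunit that closes the cohesin ring, which is loaded onto DNA and extrudes loops until it is halted, most often at CTCF bound to a site in a given orientation. Cohesin at a place without CTCF can mark a place of loading or of passage. Around an isolated cluster no other shared H3K27ac cluster lies within 200000 bp, although peaks of a single library can. In double-positive thymocytes, enhancers are commonly bound by factors of the RUNX, ETS, E protein, TCF/LEF and GATA families.

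Of the 224 members, 50 held a Rad21 region that was present in both Rad21 libraries and overlapped no CTCF peak, here called CTCF-free. The 5 members whose best such region ranked highest by Rad21 fold enrichment are shown first, as the clearest cases of cohesin without CTCF. The rank is the worse of the region's ranks in the 2 libraries. With them are 2 of the 4 members with the highest CTCF fold, as cases of CTCF at an isolated element. The cluster near Epb4.1l4a, with a CTCF fold of 16.2 against 16.0 near Lsamp, is not printed. Each Rad21 sequence is the 151 bp and each CTCF sequence the 101 bp around the summit, read from the plus strand of the mm9 genome. In the Rad21 windows, capitals mark exact matches, on either strand, to a short word for each family of factors. RUNX factors were searched for with the word TGTGGT. ETS factors were given AGGAAG as their word. For E proteins, which bind the E-box, the search used CAGNTG. TCF/LEF factors were searched for with the letters CTTTGA. For GATA factors the word was AGATAA on either strand. In the CTCF windows, capitals mark the best match to the 13-letter CTCF core consensus. The Rad21 windows were chr13:85646631-85646781 near Rasa1, chr17:51547930-51548080 near Tbc1d5, chr2:83834054-83834204 near Gm13691, chr10:37345767-37345917 near 5930403N24Rik and chr10:84873963-84874113 in Btbd11. The CTCF windows were chr12:110676079-110676179 near Dlk1 and chr16:42190341-42190441 near Lsamp.
Rasa1 cluster, CTCF-free Rad21: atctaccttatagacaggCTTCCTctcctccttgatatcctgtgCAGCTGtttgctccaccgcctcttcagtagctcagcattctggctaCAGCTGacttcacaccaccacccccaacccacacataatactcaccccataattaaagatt
Tbc1d5 cluster, CTCF-free Rad21: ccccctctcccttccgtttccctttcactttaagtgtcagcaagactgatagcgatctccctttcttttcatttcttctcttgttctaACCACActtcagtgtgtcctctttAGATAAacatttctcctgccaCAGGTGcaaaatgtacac
Gm13691 cluster, CTCF-free Rad21: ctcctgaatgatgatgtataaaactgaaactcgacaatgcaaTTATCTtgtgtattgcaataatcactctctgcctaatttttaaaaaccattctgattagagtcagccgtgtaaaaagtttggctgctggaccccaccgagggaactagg
5930403N24Rik cluster, CTCF-free Rad21: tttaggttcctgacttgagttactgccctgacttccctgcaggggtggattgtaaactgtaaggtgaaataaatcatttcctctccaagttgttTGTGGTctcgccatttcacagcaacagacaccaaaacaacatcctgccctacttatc
Btbd11 cluster, CTCF-free Rad21: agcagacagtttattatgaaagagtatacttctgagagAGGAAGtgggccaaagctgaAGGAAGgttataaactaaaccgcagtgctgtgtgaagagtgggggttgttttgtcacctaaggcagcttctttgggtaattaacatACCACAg
Dlk1 cluster, CTCF: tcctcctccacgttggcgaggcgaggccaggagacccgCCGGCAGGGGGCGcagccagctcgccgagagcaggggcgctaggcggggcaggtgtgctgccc
Lsamp cluster, CTCF: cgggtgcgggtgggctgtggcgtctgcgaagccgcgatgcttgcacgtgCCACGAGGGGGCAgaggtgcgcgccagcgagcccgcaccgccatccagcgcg

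The Rad21 windows differed in what they held. Rasa1's held 2 E protein matches and 1 ETS match, Tbc1d5's held 1 each of RUNX, GATA and E protein, and Btbd11's held 2 ETS and 1 RUNX. Gm13691's held 1 GATA match and that of 5930403N24Rik 1 RUNX match. Both CTCF windows held a plus-strand match with 1 mismatch. A match describes letters in a window and is not evidence of a bound factor.

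The strongest CTCF-free cohesin in a distal isolated cluster lay between Rasa1, a GTPase-activating protein that turns off Ras, and Cox7c, a subunit of cytochrome c oxidase. The cluster (chr13:85644262-85651765, 7504 bp, outside protein-coding genes) held 3 CTCF-free regions, and the best had a Rad21 fold of 17.9 in replicate 1 and 26.5 in replicate 2. Its H3K27ac fold was 2.69 in replicate 1 and 2.61 in replicate 2, below the members' medians of 2.82 and 3.01. Only 4 CTCF peaks per Mb lay within 500000 bp on either side. An acetylated TSS here means one with a shared H3K27ac region within 2000 bp. The nearest were those of Rasa1, 215171 bp to the left, and Cox7c, 534187 bp to the right.

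The cluster near Tbc1d5 (chr17:51545996-51549973, 3978 bp) lay in the gap between Tbc1d5, a Rab GTPase-activating protein, and Satb1, which encodes a chromatin organizer needed for thymocyte development. It held 2 CTCF-free regions with a best Rad21 fold of 11.7 in replicate 1 and 23.0 in replicate 2. Its H3K27ac fold was 5.90 in replicate 1 and 2.15 in replicate 2. The TSS of Tbc1d5 lay 227322 bp to the left and that of Satb1 398484 bp to the right, and both were acetylated. The nearest CTCF sites that also held Rad21 and a CTCF motif were 434274 and 422335 bp away and pointed toward each other.

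The Gm13691 cluster (chr2:83833913-83834637, 725 bp) was 1 of 2 members under 1000 bp with CTCF-free cohesin, whose Rad21 fold was 10.6 in replicate 1 and 14.1 in replicate 2. Its H3K27ac fold was high in both libraries, at 6.80 in replicate 1 and 11.6 in replicate 2. Its nearest protein-coding TSS, that of Gm13691, lay only 3203 bp away. The nearest acetylated TSS was that of Itgav, the integrin alpha V subunit, 269201 bp away. The cluster near 5930403N24Rik (chr10:37343987-37348513, 4527 bp) had Rad21 folds of 10.1 and 19.3, with H3K27ac folds of 2.03 in replicate 1 and 12.5 in replicate 2. The Btbd11 cluster (chr10:84872385-84875269, 2885 bp) lay in an intron of that gene, with Rad21 folds of 10.1 and 12.2 and H3K27ac folds of 4.20 and 5.10. The nearest acetylated TSS to the Btbd11 cluster was that of Cry1, a repressor of the circadian clock, 224586 bp away.

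The next 3 members by Rad21 rank lay near Diap2, Foxb1 and Runx2. The cluster near Diap2, a formin that nucleates actin filaments, was on the X chromosome (chrX:127081423-127086269), with Rad21 folds of 9.45 and 22.7 and the nearest acetylated TSS at a distance of 3507457 bp. The Foxb1 cluster (chr9:69604923-69605870) overlapped an exon of that forkhead factor gene, with Rad21 folds of 8.93 and 14.1. It lay 2877 bp from the nearest protein-coding TSS and 677 bp from that of B230323A14Rik, a gene of another biotype. The Runx2 cluster (chr17:44789795-44792725) lay in an intron of that gene, which encodes the RUNX factor of bone formation, and had Rad21 folds of 13.9 and 10.6. The nearest Runx2 TSS lay 78917 bp away. It could not be acetylated, because the rule leaves no other shared H3K27ac cluster within 200000 bp. The nearest acetylated TSS was that of Enpp4, 547037 bp away.

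Across all members, shared CTCF-free cohesin was less frequent than in clusters in general. It was found in 50 of 224 members, or 22.3% (exact 95% interval 17.0 to 28.3%), against 80 of 403 promoter isolated clusters (19.9%, 16.1 to 24.1%), 1383 of 4012 distal non-isolated clusters (34.5%, 33.0 to 36.0%) and 38.8% of all clusters. Any shared Rad21 was found in 67 members (29.9%), in 33.7% of promoter isolated and 44.3% of distal non-isolated clusters and in 54.2% of all. A CTCF peak was found in 28 members (12.5%), in 26.3% of promoter isolated and 19.2% of distal non-isolated clusters and in 32.1% of all. These intervals cover counting error only, and clusters are not replicates of a condition.

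In single Rad21 libraries the same shares were higher, and one comparison changed direction. CTCF-free Rad21 was found in 26.3% of members by replicate 1 and 43.3% by replicate 2, a mean of 34.8% ± 12.0 (SD, n = 2). The mean was 41.7% ± 15.1 in promoter isolated and 47.0% ± 9.99 in distal non-isolated clusters (SD, n = 2 each). Within each library, members were lower than distal non-isolated clusters, by 13.6 and 10.8 percentage points, and the mean difference of -12.2 was larger than its SD of 2.00. With shared regions the difference was -12.15 points. Against promoter isolated clusters the members were lower in both libraries, with differences of -4.68 and -9.05 points, but higher by 2.47 points when only shared regions counted. It was also negative when clusters were built without H3K27ac replicate 1 (-5.59 points) or without replicate 2 (-9.18 points). No direction can therefore be given for that contrast, and with 2 libraries no test was made. Clusters built without H3K27ac replicate 1 gave a CTCF-free share of 10.5% in 220 distal isolated clusters and 22.0% in distal non-isolated ones. Those built without replicate 2 gave 5.72% in 297 distal isolated clusters and 13.1% in distal non-isolated ones, a difference of -7.37 points.

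**Figure D1:**
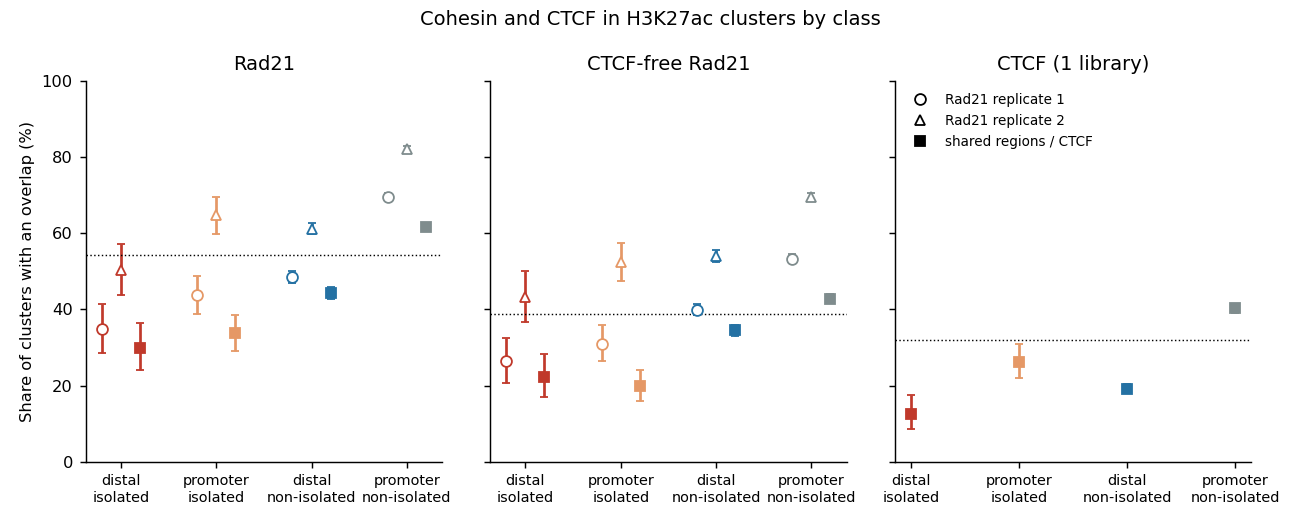
Share of clusters that overlap Rad21 (left), CTCF-free Rad21 (middle) and CTCF (right), in percent, for the 4 classes. Circles and triangles are single Rad21 libraries, squares are shared regions or the 1 CTCF library, bars are exact 95% intervals and dotted lines are the shares over all clusters (54.2, 38.8 and 32.1%). The members lie below the distal non-isolated clusters in every panel.

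Sorted by what they held, the members fell into 6 states. CTCF-free Rad21 without any CTCF was found in 42, CTCF-free Rad21 with a CTCF peak elsewhere in the cluster in 8, CTCF-bound Rad21 alone in 17 and CTCF without shared Rad21 in 4. A further 53 had a Rad21 peak in 1 or both libraries that was not shared, of which 44 had it in replicate 2 only and 8 in replicate 1 only. The other 100, or 44.6%, had no Rad21 peak in either library and no CTCF peak, against 26.3% of promoter isolated and 34.8% of distal non-isolated clusters. Most members with CTCF-free cohesin had 1 such region: 43 had 1, 5 had 2 and 2 had 3, which makes 59 regions.

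Those 59 regions were about as strong as CTCF-free regions elsewhere. Their median Rad21 fold was 5.80 in replicate 1 (3.26 to 17.9) and 7.52 in replicate 2 (3.54 to 26.5), against 6.19 and 8.02 in distal non-isolated clusters and 6.07 and 7.35 over all 10559 CTCF-free regions. Across the 59 regions, which share both libraries, the folds of the 2 libraries ranked alike with a Spearman's rho of 0.581. Of the 59 regions, 44 had their centre in the central 50% of the cluster, and 6 lay within 10% of an edge. Positions were not counted in the other classes, so nothing particular to the members can be read from this.

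Wider members held CTCF-free cohesin more often. It was found in 2 of 48 members under 1000 bp (4.17%), 8 of 67 of 1000 to under 2000 bp (11.9%), 26 of 82 of 2000 to under 5000 bp (31.7%) and 14 of 27 of 5000 bp or more (51.9%). In distal non-isolated clusters the shares in the same classes were 10.3, 19.9, 36.6 and 64.9%. The members were lower in each of the 4 width classes, but in each class their interval reached the share of the distal non-isolated clusters. Promoter isolated clusters had 8.00, 15.9, 18.9 and 56.6%, so members were higher in the class of 2000 to under 5000 bp and lower in the other three.

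**Figure D2:**
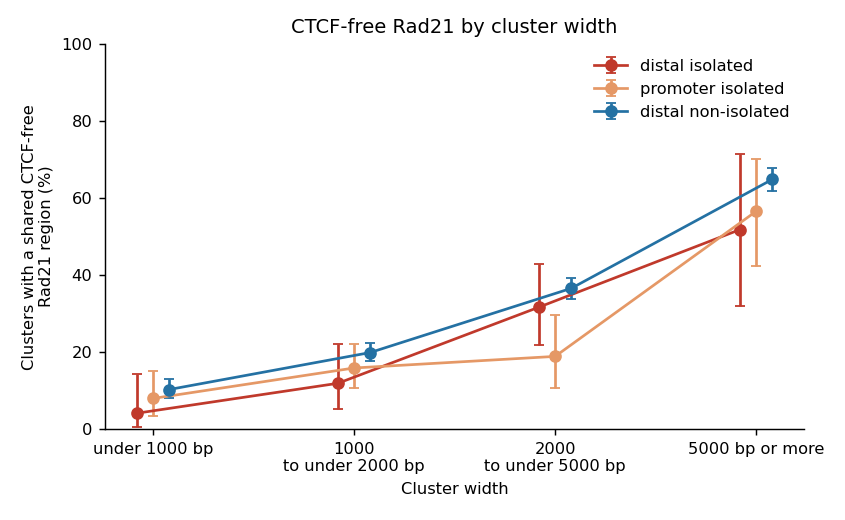
Share of clusters with a shared CTCF-free Rad21 region, in percent, by cluster width for distal isolated, promoter isolated and distal non-isolated clusters, with exact 95% intervals as bars. The share in the members was 4.17% under 1000 bp and 51.9% at 5000 bp or more.

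Acetylation of the members was modest and differed between libraries. Median H3K27ac fold was 2.82 in replicate 1 (1.27 to 26.5) and 3.01 in replicate 2 (1.13 to 24.0), against 2.91 and 3.10 in distal non-isolated clusters. The members' folds in the 2 libraries had a Spearman's rho of 0.000173 over 224 clusters, against 0.100 over 4012 distal non-isolated clusters and 0.174 over 403 promoter isolated ones. A peak at a q-value of 0.05 or less was present in both libraries in 104 members (46.4%, against 54.0% of all clusters) and in neither in 24 (10.7%, against 9.17%). These values chose the members and are given as a description.

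The highest values of each library were not the highest of the other. The cluster near Lsamp, a neuronal adhesion molecule of the limbic system, had an H3K27ac fold of 26.5 in replicate 1 and 6.37 in replicate 2. The one near Pcmtd1 (chr1:7387261-7387997), which lies in no protein-coding gene, had 2.94 in replicate 1 and 24.0 in replicate 2. Pcmtd1 was singled out after its values were seen. The Gm13691 cluster was high in both libraries.

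**Figure D3:**
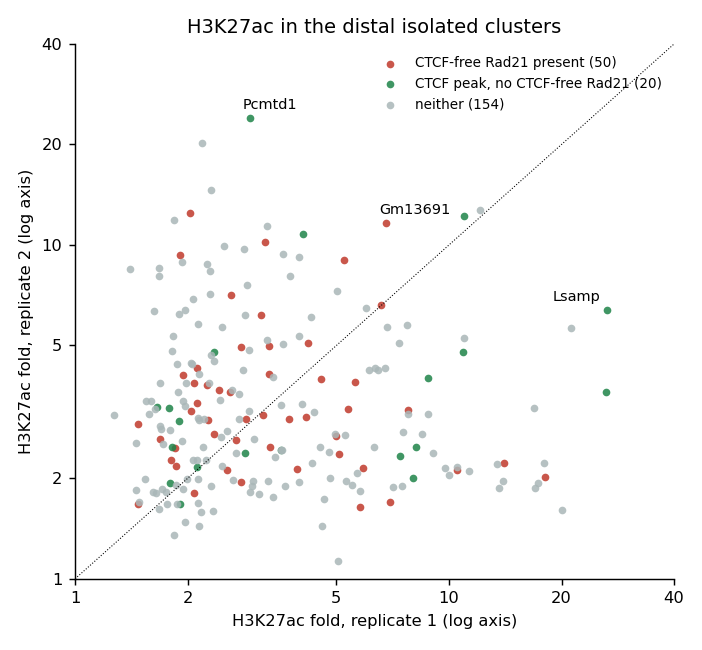
H3K27ac fold enrichment of the 224 distal isolated clusters in replicate 1 (horizontal) and replicate 2 (vertical), both on log axes, coloured by whether the cluster held CTCF-free Rad21 (50), a CTCF peak without it (20) or neither (154). The dotted line marks equal folds, and the points show no common order (rho 0.000173).

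Members with firmer acetylation held cohesin more often, and this was also seen in the classes they were compared with. CTCF-free Rad21 was found in 31 of 104 members (29.8%) with a q-value of 0.05 or less in both H3K27ac libraries, in 16 of 96 (16.7%) with it in 1 and in 3 of 24 (12.5%) with it in neither. The corresponding shares were 43.1, 28.3 and 19.4% in distal non-isolated clusters and 23.9, 16.9 and 9.52% in promoter isolated ones. Cluster width moved with these classes: the members' median width was 2207 bp with both, 1761 bp with 1 and 1052 bp with neither. Its part in the shares was not tested.

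Members were intermediate in width and lay outside genes more often than other distal clusters. Their median width was 1938 bp (301 to 35639), against 1485 bp in promoter isolated and 2267 bp in distal non-isolated clusters. A single acetylated region made up 206 of 224 members (92.0%), against 88.1% of promoter isolated and 81.5% of distal non-isolated clusters. The gap to the nearer neighbour had a median of 302187 bp and reached 3528504 bp. Of the members, 138 lay outside protein-coding genes (61.6%, against 47.2% of distal non-isolated clusters). Another 73 lay in introns (32.6%, against 34.4%) and 13 over an exon (5.80%, against 18.4%). They lay on all 19 autosomes and the X chromosome, with 6 to 17 on each autosome and 11 on X.

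The nearest protein-coding TSS was a median of 86247 bp away (2383 to 2129245), against 28766 bp in distal non-isolated clusters, and in 158 members it lay within 200000 bp. The rule forbids a shared H3K27ac cluster within that distance, so nearby TSS are without shared acetylation by construction. The nearest acetylated TSS was 392063 bp away at the median, and over 1000000 bp away in 25 members. The gene with the nearest TSS had shared acetylation at one of its TSS in 31 of 224 members (13.8%), against 41.6% of all genes, which the rule bears on. Within 2000 bp of the TSS of a gene of another biotype lay 16 members (7.14%, against 7.18% of distal non-isolated clusters), 7 of them at processed transcripts, 6 at lincRNAs, 2 at pseudogenes and 1 at an immunoglobulin V gene.

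The space around them was not empty in the single lists. Within 200000 bp, the Rasa1 cluster had 19 peaks of H3K27ac replicate 1 and 1 of replicate 2. The 5930403N24Rik cluster had 27 and 1, against members' medians of 2 and 0. Peaks of H3K27ac replicate 1 alone lay within 200000 bp of 162 members (72.3%) and of replicate 2 alone within that distance of 101 (45.1%). None of either lay that near to 50 members (22.3%). The shares in promoter isolated clusters were much the same, at 73.7, 40.7 and 20.8%. Except for those 50, isolation thus rests on the demand that a region be present in both libraries.

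The 6 members with the largest smaller gaps mostly held no shared Rad21, as did 157 of all 224 members. The largest smaller gap, 3528504 bp, belonged to a cluster near Cntnap5b, a neuronal contactin-associated protein (chr1:103798587-103801085), with H3K27ac folds of 1.70 and 1.85 and no Rad21 or CTCF peak. A cluster near Cntn5, a neural contactin (chr9:11512712-11514654), had a smaller gap of 1753497 bp, H3K27ac folds of 2.78 and 4.96 and 2 CTCF-free regions, the best at Rad21 folds of 6.07 and 4.97. Of the other four with the largest smaller gaps, those near Sis, Cbln2 and Efna5 held no Rad21 peak, and the one in an intron of Gpr125 had a fold of 4.30 in Rad21 replicate 2 only. Sis encodes sucrase-isomaltase of the gut, Cbln2 a cerebellin of synapses, Efna5 an ephrin and Gpr125 an adhesion receptor.

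Of the 6 widest members, 4 held shared Rad21, against 16 of all 27 members of 5000 bp or more (59.3%). The widest (chr15:34817578-34853216, 35639 bp in 4 regions) lay in an intron of Stk3, a kinase of the Hippo pathway, with the TSS of the potassium channel gene Kcns2 nearest. It held 3 shared Rad21 regions, with a highest Rad21 fold of 18.7 in replicate 1 and 16.1 in replicate 2. The better of its 2 CTCF-free regions had folds of 5.02 and 5.73, and its CTCF peak had a fold of 7.66. A 16331-bp cluster in an intron of Fam49a (chr12:12293947-12310277) had H3K27ac folds of 11.0 and 5.26 but a Rad21 peak in replicate 1 only. An 11891-bp cluster in an intron of Odz4, a teneurin (chr7:103593977-103605867), had none. The widest members also included one near Rngtt, the mRNA capping enzyme, which held CTCF-bound Rad21, one in an intron of Rbms3, an RNA-binding protein, with CTCF-free folds of 5.70 and 7.61, and one at Ebf1.

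Ebf1, which encodes a transcription factor that commits cells to the B lineage, was the only gene of the compared lists nearest to a member. It was 1 of 10 annotated genes in the list of B cell genes. Its wider cluster (chr11:44694466-44707167, 12702 bp) overlapped an exon, with H3K27ac folds of 5.38 and 3.22 and a CTCF-free region of Rad21 folds 5.80 and 4.91. A second cluster (chr11:45027557-45029943) had H3K27ac folds of 2.24 and 2.27 and no Rad21. No TSS of Ebf1 held a shared H3K27ac region. The rule bears on this: it allows none at the Ebf1 TSS 18473 bp from the wider cluster. No member was nearest to any of 23 annotated genes that signal from the T cell receptor and its coreceptors, 31 regulators of the double-positive stage, 23 genes of survival, trafficking and maturation, or 13 cohesin and loop extrusion genes. As 0.950% of all genes were nearest to a member, none in lists of this size is near the background. Distal non-isolated clusters were nearest to 8 of 23, 18 of 31, 11 of 23 and 3 of 13 genes of these lists, with 12.2% over all genes. Promoter isolated clusters, like the members, were nearest to none of them, with 2.07% over all genes. No member was nearest to 11 annotated myeloid and dendritic, 9 erythroid and megakaryocyte or 10 thymic epithelial and stromal genes. The same held for 11 neuronal and 10 liver genes.

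Where CTCF was present, it could be strong. The 28 members with a CTCF peak had a median CTCF fold of 7.51, against 6.90 in distal non-isolated clusters. The highest was 20.8, near Dlk1, an imprinted gene for a protein of the Notch ligand family (chr12:110675560-110676419), where Rad21 reached folds of 51.1 in replicate 1 and 24.6 in replicate 2. The Lsamp cluster (chr16:42189524-42190908) combined a CTCF fold of 16.0 with Rad21 at 10.8 in replicate 1 and 23.6 in replicate 2. The cluster in an intron of Ptprj, a receptor tyrosine phosphatase (chr2:90315150-90316456), had CTCF at 14.6-fold and Rad21 at 57.1 in replicate 1 and 64.5 in replicate 2, above every other named member. The Ptprj cluster lay 2871 bp from the nearest protein-coding TSS. The cluster near Epb4.1l4a was second by CTCF fold, at 16.2. It overlapped a TSS of 2410004N09Rik and AC150277.1, which are not protein-coding, and had a ratio of observed to expected CpG of 0.851.

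The base composition of the members was that of other distal clusters and not of promoters. Their median GC content was 44.6%, against 53.7% in promoter isolated and 46.6% in distal non-isolated clusters. The ratio of observed to expected CpG dinucleotides was 0.205, against 0.692 and 0.218. A GC content over 50% with a CpG ratio over 0.6 was found in 9 of 224 members, against 233 of 403 promoter isolated and 128 of 4012 distal non-isolated clusters.

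The short motifs at the 59 CTCF-free summits resembled those of distal non-isolated clusters, apart from GATA. Within 100 bp of the summit, an E protein match was found in 41 of 59 (69.5%), an ETS match in 32 (54.2%), a RUNX match in 16 (27.1%) and a TCF/LEF match in 12 (20.3%). The shares were 68.5, 45.0, 28.1 and 18.8% over 2107 CTCF-free regions of distal non-isolated clusters, and 52.7, 34.9, 20.8 and 13.2% over all 10559 CTCF-free regions. Matches of different families could overlap and each was counted. None of the 5 motifs was present in 3 of the 59 windows, against 23.6% of all CTCF-free regions. The share without any motif was not counted in distal non-isolated clusters, so the contrast cannot be taken as particular to the members. A match to the CTCF core consensus was found at 4 of the 59 summits (6.78%). Its share was 9.30% in distal non-isolated clusters and 21.1% over all CTCF-free regions. The label CTCF-free means only that no CTCF peak overlapped the region. The part of regions with a CTCF match in the shares over all CTCF-free regions was not tested.

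A GATA match was found in 14 of 59 windows (23.7%), against 8.21% in distal non-isolated clusters and 6.19% over all CTCF-free regions. In windows of the same length centred 1000 bp downstream, it was found in 8.47% of members' regions and 10.5% of those of distal non-isolated clusters. The 14 regions lay in 12 clusters on 9 chromosomes, among them those near Rasa1, Tbc1d5, Gm13691, 5930403N24Rik, Fam111a and Cntn5. In the Rasa1 cluster it was a weaker region (chr13:85649190-85649683) than the one printed above. The match near 5930403N24Rik lay outside the 151 bp printed. The GATA contrast was noticed after the values were seen and among 5 motifs. Members' windows were also lower in GC, at a median of 47.8% against 50.7% in distal non-isolated clusters, and the part of composition was not tested. E protein and ETS matches were found in 28.8 and 18.6% of members' regions in the windows 1000 bp away, and RUNX and TCF/LEF matches in 18.6 and 16.9%.

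**Figure D4:**
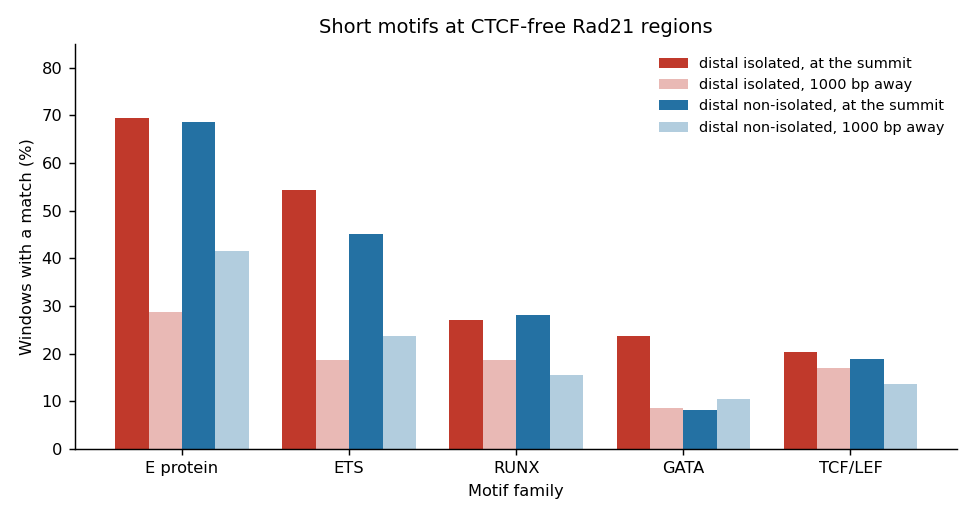
Share of windows that hold a match to each motif family, in percent, at CTCF-free Rad21 summits (dark) and 1000 bp downstream (light), in distal isolated (59 regions) and distal non-isolated clusters (2107 regions). GATA matches were in 23.7% of summit windows of distal isolated clusters, against 8.21% in distal non-isolated ones.

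CTCF was sparse around the members. Within 500000 bp on either side, the median was 11 CTCF peaks per Mb, against 10 around promoter isolated and 22 around distal non-isolated clusters, and the difference to distal non-isolated clusters was -11 peaks per Mb. The quartiles were 6 and 15 around members and 15 and 30 around distal non-isolated clusters, so they met without crossing. Clusters built without H3K27ac replicate 2 had medians of 6 peaks per Mb around distal isolated and 17 around distal non-isolated clusters, again a difference of -11. With 1 CTCF library there is no spread between replicates.

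The densities inside and next to the members differed for the 2 kinds of site. CTCF-free Rad21 regions numbered 94.2 per Mb inside members and 2.01 per Mb in the first 10000 bp outside. Inside promoter isolated clusters they numbered 81.4 and inside distal non-isolated clusters 109 per Mb, so a high density inside was common to the 3 classes. Around members they numbered 1.01 per Mb between 50000 and 200000 bp and 4.15 per Mb between 200000 and 500000 bp. CTCF peaks numbered 38.3 per Mb inside members (85.02 in promoter isolated and 47.7 in distal non-isolated clusters) and 18.5 per Mb in the first 10000 bp, with 9.51 and 12.2 per Mb farther out. Around distal non-isolated clusters CTCF was between 22.0 and 26.2 per Mb in the same 4 distance ranges outside, and CTCF-free Rad21 reached 15.4 per Mb between 10000 and 50000 bp. Inside a radius of 200000 bp the rule leaves no shared H3K27ac cluster around an isolated one, which bears on the Rad21 density there.

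**Figure D5:**
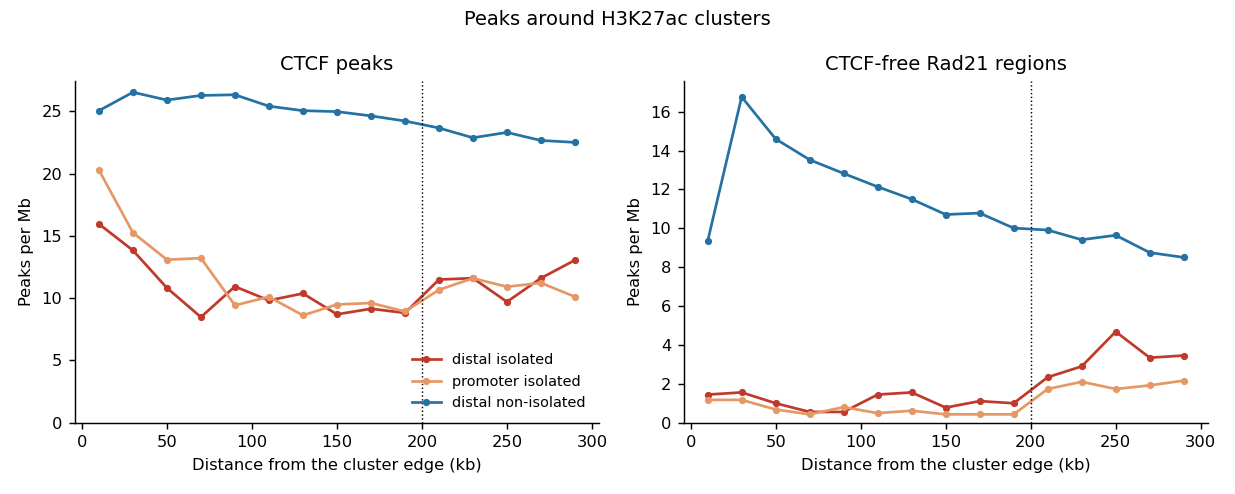
Density of CTCF peaks (left) and shared CTCF-free Rad21 regions (right), in peaks per Mb, in 20-kb steps by distance from the cluster edge in kb for 3 classes. The dotted line is the isolation distance, and both isolated classes lie below the distal non-isolated clusters at every step.

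The nearest CTCF sites that held Rad21 and a motif spanned a median of 527827 bp around a member, against 439734 bp around promoter isolated and 137114 bp around distal non-isolated clusters. Their motifs pointed toward each other at 84 of 224 members (37.5%), away from each other at 44, both to the plus strand at 42 and both to the minus strand at 54. Convergent pairs made up 31.5% around promoter isolated and 39.7% around distal non-isolated clusters. Members with CTCF-free Rad21 lay in shorter spans than the 157 members with no shared Rad21, at medians of 324888 and 566279 bp. They were also wider (3718 against 1571 bp) and nearer to a TSS (58747 against 100237 bp), and 21 of 50 lay between convergent sites, against 57 of 157.

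At the edges of the rule, the members just inside the isolation distance were a pair near Zfp608, 201014 bp apart, and those just outside were near Enc1 (199529 bp) and Tcf7l2 (196131 bp), a TCF/LEF factor. The members nearest to a TSS were those near Gm11042 (2383 bp) and Fam111a (2655 bp), while isolated clusters near Gm2606 (1716 bp) and 9330101J02Rik (449 bp) were left out. The Enc1 cluster held CTCF-free Rad21 and that of Tcf7l2 held 2 such regions with 2 CTCF peaks. Neither is counted among the members, and both belong to the distal non-isolated clusters.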

How the data were processed

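The 5 peak lists are of wild type cells. The submitters' processing notes name the build mm9, MACS2 2.1.0 and Bowtie 1.0.0, and no source used here states thresholds or controls. Each peak carries a fold enrichment, a ratio over background computed by the authors' caller, and −log10 p and −log10 q values as deposited. The H3K27ac and CTCF lists also hold peaks with q over 0.05.

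Peaks on chromosomes 1 to 19 and X were used. Overlap needed 1 bp. Clusters at chromosome ends (40) were left out. TSS were those of GENCODE vM1 protein-coding genes. CTCF core matches allowed 2 mismatches within 50 bp of the summit. Shares have Clopper-Pearson intervals, and no test was made. Named clusters were the best by Rad21 rank (8), smaller gap (6), width (6) and CTCF fold (4), those nearest to a listed gene and the 2 on either side of each threshold. The members, lists and alternatives were chosen with earlier results of these data known. The rule was tested on simulated data. Python 3.11.15 with pandas 2.3.3, numpy 2.4.6 and scipy 1.17.1 was used. The marker check of 1 further cell type is not reported here.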

Additional observations from a re-analysis of the deposited data

How the results depend on the processing

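The peak lists hold no read counts, so what depth limits is unknown. The number of members was 542 with isolation at 100000 bp and 68 at 400000 bp. The difference in CTCF-free share between members and promoter isolated clusters, 2.47 points, was 9.07 points at 400000 bp and changed sign to -1.58 at 100000 bp and -0.105 with a −log10 q of at least 5, and it was -9.18 to -4.68 with any 1 library left out. The cause was not tested. The difference to distal non-isolated clusters stayed negative under every alternative run, at -13.6 to -7.37 with 1 library left out and -9.18 with H3K27ac peaks at q of 0.05 or less, which was chosen after seeing the data. The difference in flanking CTCF, -11 peaks per Mb, was -8 with isolation at 100000 bp and with that H3K27ac threshold, -14 at 400000 bp, -13 with stitching within 3000 bp, -10.5 with promoters of 5000 bp or of genes of every biotype, -6 with a −log10 q of at least 5 and -12.5 in flanks of 200000 bp. No paired analysis was possible because no model or test was fitted to which a replicate block could be added, and the report gives the differences within each Rad21 library instead.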
